A study of Mus musculus with 6 samples.

Results

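Bile acid synthesis, conjugation and transport were followed in male mouse liver through 10 genes, Cyp7a1, Cyp8b1, Cyp27a1 and Cyp39a1 for synthesis, Slc27a5, Baat and Slc27a2 for activation and conjugation, and Slc10a1, Abcb11 and Slc51b for transport. They were taken by name, with every probe set that the array's annotation gives to that gene alone, which made 14 probe sets, and they stand beside 18193 genes of the array that have such a probe set. The 10 genes were all among the 12469 genes tested, and 13 of their 14 probe sets were tested. A probe set is a group of short probes for one transcript, and its RMA value is a background-corrected, quantile-normalized level on the log2 scale. Each gene is represented by its probe set with the highest mean over the 6 arrays. Levels of different probe sets cannot be set against each other, so genes are compared by their differences between genotypes only. The exception is the background level used below, which comes from another probe set and is therefore a rough guide only.

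The arrays hold liver RNA of 3 GHRH-KO males, which lack growth hormone-releasing hormone, and of 3 normal male littermates as controls, both on a mixed C57BL6 and 129SV background. The mice were 10 months old according to the methods and had been fasted for 6 to 8 h, and each array holds a separate animal. The knockout is carried by the whole animal, so an effect on the hepatocyte cannot be told apart from one on other organs. A gene was called at FDR < 0.05 in limma with a fold change above 1.5 or below 0.67, with p adjusted over all probe sets tested.

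Bile acids are made in hepatocytes from cholesterol. A classic route opens with CYP7A1, alternative routes open with hydroxylation of the sterol side chain, and CYP8B1 sets how much of the product is cholic acid. The acids are joined to coenzyme A and then to taurine or glycine, pumped into bile by the export pump ABCB11, taken up in the gut and returned by portal blood to the hepatocyte, where SLC10A1 takes them up again. Growth hormone (GH) acts on the liver through the kinase JAK2 and the transcription factor STAT5, and its pulses differ between male and female rodents.

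The bile acid genes did not move as a block in GHRH-KO liver. Cyp39a1, an oxysterol hydroxylase, rose 14.5-fold and Slc10a1, the main sodium-dependent bile acid carrier of the hepatocyte, fell to 0.544 of the control level, while the other 8 genes were not called. Thus 1 of 10 genes was called higher, beside 0.786% of all genes tested, and 1 of 10 was called lower, beside 0.970%. Counted in either direction, 1.76% of all genes tested were called. At an unadjusted p under 0.05, 5 of the 10 genes passed, beside 19.3% of all genes tested. The median log2 fold change was 0.16 over the 10 genes and 0.0033 over all genes tested. It was -0.09 for the 4 synthesis genes, 0.18 for the 3 genes of activation and conjugation and -0.30 for the 3 transporters. GHRH-KO values lay wholly above those of controls in 4 of the 10 genes and wholly below them in 4, beside 12.7% and 15.7% of all genes tested, or 28.4% without overlap in either direction. These separations include small differences that the test did not call.

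**Figure D1:**
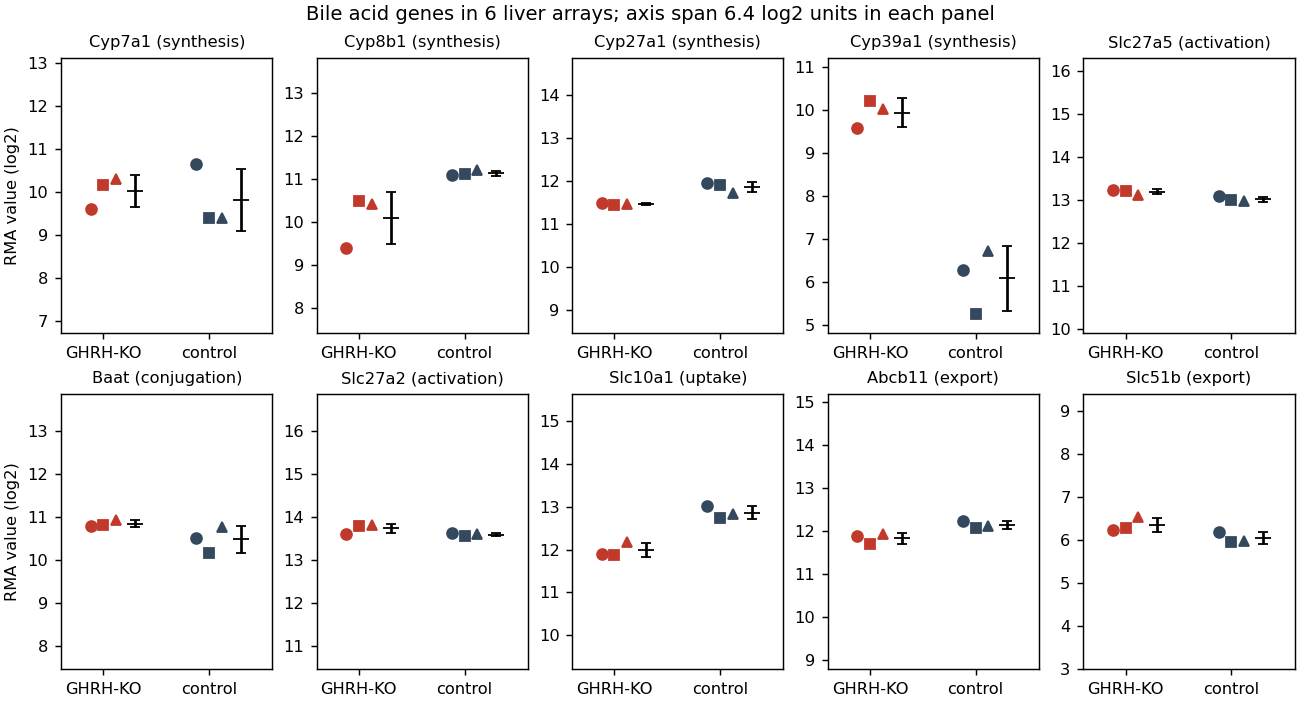
RMA values (log2) of the 10 bile acid genes in each array, GHRH-KO in red at the left (circle, square and triangle for replicates 4, 5 and 6) and control in dark grey at the right (replicates 1, 2 and 3), and black bars for mean ± SD within a genotype; every panel spans the same number of log2 units. Cyp39a1 shows the widest gap between genotypes, Slc10a1 lies lower in GHRH-KO, and the Cyp7a1 points of the genotypes overlap.

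Whether the whole liver sampled in each genotype held the same cells bears on every value here, since fewer cells of a type and less RNA per cell cannot be told apart in tissue RNA. The 8 hepatocyte markers averaged 13.86 to 13.90 in GHRH-KO arrays and 13.75 to 13.82 in control arrays (RMA values, log2), and none was called. GHRH-KO values lay wholly above controls in 4 of the 8, beside 12.7% of all genes tested, and the median log2 fold change was 0.096. Of 7 cholangiocyte markers 5 had a probe set, and Krt7 and Cftr were at background in both genotypes. The mean level of the 5 was 4.58 to 4.72 in GHRH-KO and 4.51 to 5.11 in control arrays. None of the 3 tested was called. Sox9 alone of the 3 lay below all controls in every GHRH-KO mouse, at 0.686 of the control level (adjusted p = 0.140 from limma), beside 15.7% of all genes tested. Kupffer cell or macrophage markers averaged 7.78 to 9.001 in GHRH-KO and 7.64 to 9.03 in control arrays, a wide spread within both genotypes, and none of the 7 was called. Cd68 alone of the 7 lay above all controls in every GHRH-KO mouse, at 2.28-fold (adjusted p = 0.155 from limma), beside 12.7% of all genes tested. The list did not move together. Marco was at 0.417 of the control level with overlap (adjusted p = 0.381), Adgre1 was at 1.04 of it, and the median log2 fold change of the 7 was 0.32. No endothelial, stellate or fibroblast, lymphocyte or neutrophil marker was called either. Col3a1 was at 2.23-fold with overlap (adjusted p = 0.199), while the median log2 fold change of its stellate or fibroblast list was 0.18. The 2 neutrophil markers tested had a median of 0.78, a lower bound because their control means were at background. The part of any of these cells in the bile acid gene values was not tested. Background here means no more than 4.75, the top reading on the 6 arrays for Ghrh, a transcript of the hypothalamus. Ghrh itself therefore does not check the genotype in liver. Igf1, the growth factor that GH induces in liver, had 6.72, 6.79 and 6.92 in GHRH-KO and 12.16, 12.52 and 12.49 in control mice.

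The strongest change among the synthesis genes was that of Cyp39a1, which hydroxylates an oxysterol on an alternative route and is known to be higher in female than in male mouse liver. Its RMA values (log2) were 9.59, 10.23 and 10.03 in GHRH-KO replicates 4, 5 and 6, and 6.27, 5.26 and 6.72 in control replicates 1, 2 and 3. The lowest GHRH-KO value stood 2.86 above the highest control value. The log2 fold change was 3.86 (standard error 0.37, 95% interval 3.00 to 4.73, adjusted p = 0.0050 from limma). This difference was larger in size than that of 99.9% of the genes tested. The control values were themselves wide, with an SD of 0.75 that was larger than that of 98.3% of genes tested, and control replicate 2 was the lowest. With any 1 array left out the gene stayed called, with a log2 fold change from 3.45 without control replicate 2 to 4.18 without control replicate 3. Its control mean of 6.08 was above background. Its single probe set gives no second reading of the change.

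Cyp7a1 encodes the hydroxylase that starts the classic route and limits its rate. Its RMA values (log2) were 9.61, 10.16 and 10.31 in GHRH-KO mice, against 10.64, 9.39 and 9.39 in controls. The genotypes overlapped, with control replicate 1 above every GHRH-KO mouse. The log2 fold change was 0.22 with a 95% interval of -0.64 to 1.07 (adjusted p = 0.783 from limma), so that the data allow anything from 0.641 to 2.10 times the control level. A second probe set had 6.58, 6.90 and 7.22 in GHRH-KO and 8.05, 6.13 and 6.85 in control mice, a log2 fold change of -0.11 (95% interval -1.18 to 0.95, adjusted p = 0.919). Both probe sets put control replicate 1 highest of the 6 arrays. The SD among controls, 0.72, exceeded that of 98.2% of genes tested. Without control replicate 1 the log2 fold change of the brighter probe set was 0.63 (adjusted p = 0.295), and without control replicate 2 or 3 it was 0.0073 (adjusted p = 0.995). The same control array also read 7.04 for the cholangiocyte keratin Krt19, which was 4.76 to 4.97 in GHRH-KO arrays and 4.59 and 4.69 in the other controls. The other tested cholangiocyte markers did not follow Krt19 in this array. Epcam read 5.32 there and 5.55 and 5.42 in the other controls, and Sox9 read 5.43 there and 5.72 and 5.41. The part of the Krt19 reading in the Cyp7a1 values was not tested.

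Cyp8b1 encodes the sterol hydroxylase that directs synthesis toward cholic acid. Its RMA values (log2) were 9.40, 10.48 and 10.42 in GHRH-KO mice, against 11.08, 11.11 and 11.20 in controls. All GHRH-KO mice lay below all controls, replicate 4 farthest, and the GHRH-KO spread was wide (SD 0.60, larger than in 96.5% of genes) beside a control SD of 0.063. The log2 fold change was -1.03 (95% interval -1.69 to -0.37), or 0.489 of the control level, and did not pass the adjusted threshold (adjusted p = 0.132 from limma). Without GHRH-KO replicate 4 it was -0.68 (adjusted p = 0.0863). The direction was the same with any 1 array left out.

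Cyp27a1, the mitochondrial hydroxylase of the sterol side chain, had 11.48, 11.44 and 11.46 in GHRH-KO mice, against 11.96, 11.89 and 11.72 in controls (RMA values, log2). The GHRH-KO values were among the tightest on the array, since only 1.69% of genes had a smaller SD in that group. The log2 fold change was -0.40 (95% interval -0.67 to -0.13), which was not called (adjusted p = 0.141 from limma). A further probe set of Cyp27a1 lay at 2.85 to 3.30 in GHRH-KO and 2.99 to 3.14 in control mice, under background, and was not tested.

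None of the 3 genes that activate and conjugate bile acids was called. Slc27a5 encodes the ligase that joins bile acids to coenzyme A. It had 13.25, 13.22 and 13.13 in GHRH-KO and 13.09, 13.00 and 12.97 in control mice (RMA values, log2). Its log2 fold change was 0.18 with a 95% interval of -0.07 to 0.43 (adjusted p = 0.403 from limma). The interval excludes a fold change of 1.5 in either direction, its upper end being 1.35-fold.

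Baat encodes the transferase that adds taurine or glycine. Its brighter probe set had 10.79, 10.81 and 10.93 in GHRH-KO and 10.51, 10.15 and 10.77 in control mice. GHRH-KO values were higher by as little as 0.023, and the log2 fold change was 0.37 (95% interval -0.03 to 0.77, up to 1.70-fold, adjusted p = 0.306 from limma). It was 0.21 without control replicate 2 and 0.51 without control replicate 3. That probe set is of a kind that can bind other transcripts. The other one had 9.07, 9.28 and 9.30 in GHRH-KO and 9.06, 8.74 and 9.28 in control mice, with overlap and a log2 fold change of 0.19 (adjusted p = 0.565).

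Slc27a2 encodes an acyl-CoA synthetase of very long fatty acids that also activates bile acid precursors. It had 13.61, 13.80 and 13.81 in GHRH-KO and 13.62, 13.55 and 13.60 in control mice, so that GHRH-KO replicate 4 lay among the controls. GHRH-KO minus control was 0.15 on the log2 scale (95% interval -0.12 to 0.41, adjusted p = 0.517 from limma), an upper end of 1.33-fold. Its relatives Slc27a1 and Slc27a4, fatty acid transport proteins, had log2 fold changes of 0.00042 and -0.027, and neither was called.

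Bile acid transport differed by gene. Slc10a1 carries bile acids from blood into the hepatocyte together with sodium. It had 11.90, 11.88 and 12.17 in GHRH-KO mice, against 13.02, 12.73 and 12.83 in controls (RMA values, log2). All GHRH-KO mice lay below all controls, by at least 0.56. The log2 fold change was -0.88 (standard error 0.14, 95% interval -1.20 to -0.56, adjusted p = 0.0310 from limma). The second probe set gave 11.12, 10.97 and 11.41 in GHRH-KO and 12.24, 11.96 and 12.17 in control mice. At -0.96 on the log2 scale (95% interval -1.32 to -0.60, adjusted p = 0.0337), it was called as well, so both readings of this gene had the same direction and nearly the same size. The size was steady with 1 array left out, from -0.97 to -0.80, but the call was lost each time (adjusted p from 0.0657 to 0.104).

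Abcb11 encodes the pump that exports bile acids into bile. It had 11.88, 11.70 and 11.94 in GHRH-KO mice, against 12.24, 12.08 and 12.12 in controls. GHRH-KO values lay below those of controls by at least 0.14, and the log2 fold change of -0.30 (95% interval -0.58 to -0.02) was not called (adjusted p = 0.245 from limma). Slc51b encodes a subunit of an exporter on the blood side of the cell. It had 6.22, 6.28 and 6.53 in GHRH-KO and 6.19, 5.96 and 5.97 in control mice, a log2 fold change of 0.30 (95% interval -0.01 to 0.62, adjusted p = 0.292). Control replicate 1 was within 0.029 of the lowest GHRH-KO mouse. Slc51a, the other subunit, was at background in both genotypes, at 4.09 to 4.28 in GHRH-KO and 4.07 to 4.12 in control mice.

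**Figure D2:**
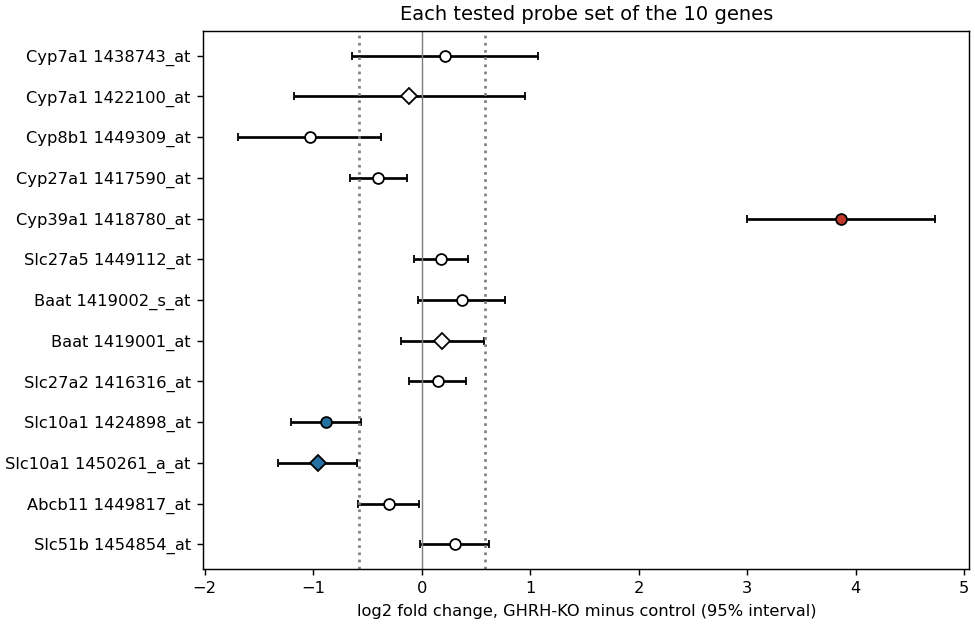
Log2 fold change, GHRH-KO minus control, with its 95% interval for each of the 13 tested probe sets (circles for the probe set that represents the gene, diamonds for further ones); red and blue fill mark probe sets called higher and lower, white those not called, and dotted lines the fold thresholds of 1.5 and 0.67. Cyp39a1 lies far to the right at 3.86, and both Slc10a1 probe sets lie at -0.88 and -0.96.

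GHRH-KO values lay wholly below control values in 4 of these genes, Slc10a1, Cyp8b1, Cyp27a1 and Abcb11, of which Slc10a1 alone was called. Their promoters are shown, from 250 bases before to 50 bases after the annotated start in RefSeq (GRCm38.p6), because GH signals in liver through STAT5 and because the methods scanned upstream regions for binding motifs. The reference table held promoters of 6 of the 10 genes. Capitals mark the STAT5 letters TTCNNNGAA and the TATA box letters TATAAA, searched on both strands.
Slc10a1, chr12:80968656-80968955, strand -: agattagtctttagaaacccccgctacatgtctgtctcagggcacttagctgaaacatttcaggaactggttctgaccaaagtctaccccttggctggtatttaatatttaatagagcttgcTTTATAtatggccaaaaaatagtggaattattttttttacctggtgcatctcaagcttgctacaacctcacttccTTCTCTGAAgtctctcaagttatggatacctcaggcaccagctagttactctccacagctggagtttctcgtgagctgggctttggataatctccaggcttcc
Cyp8b1, chr9:121916256-121916555, strand -: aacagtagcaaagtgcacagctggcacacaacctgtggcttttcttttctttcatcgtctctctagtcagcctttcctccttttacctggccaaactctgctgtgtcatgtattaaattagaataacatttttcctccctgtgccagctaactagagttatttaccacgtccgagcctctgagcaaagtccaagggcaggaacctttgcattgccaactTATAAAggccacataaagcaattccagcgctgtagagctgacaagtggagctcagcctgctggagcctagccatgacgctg
Cyp27a1, chr1:74713285-74713584, strand +: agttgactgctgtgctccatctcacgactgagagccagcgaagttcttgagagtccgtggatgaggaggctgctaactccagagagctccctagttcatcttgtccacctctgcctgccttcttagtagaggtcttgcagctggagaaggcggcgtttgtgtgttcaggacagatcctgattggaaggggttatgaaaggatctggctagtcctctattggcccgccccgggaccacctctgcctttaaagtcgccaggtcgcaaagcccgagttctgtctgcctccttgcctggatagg
Abcb11, chr2:69342567-69342866, strand -: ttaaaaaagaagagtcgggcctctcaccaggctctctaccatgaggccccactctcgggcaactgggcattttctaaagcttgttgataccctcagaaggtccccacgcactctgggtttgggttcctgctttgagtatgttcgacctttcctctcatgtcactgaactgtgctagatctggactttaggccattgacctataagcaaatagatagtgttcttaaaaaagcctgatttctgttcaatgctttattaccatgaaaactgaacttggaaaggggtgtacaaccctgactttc
The Slc10a1 promoter held TTCTCTGAA, beginning 53 bases before the start, and TATAAA on the opposite strand beginning 128 bases before it. A second annotated start of Slc10a1 had no match to either. The Cyp8b1 promoter held TATAAA 31 bases before the start, and those of Cyp27a1 and Abcb11 held no match to the letters searched. Of the other promoters, that of Slc51b held TTCTCGGAA 65 bases before its start and that of Slc27a2 held no match. TTCNNNGAA occurs in 8.30% of all 32851 promoters of this length and TATAAA in 13.6%. The HNF1 motif, present in 0.399% of promoters, its shorter core GTTAAT, in 7.10%, and the inverted repeat bound by the bile acid receptor FXR, in 0.00913%, were likewise searched on both strands and were in none of the 7 promoter entries of these genes. Only exact matches to the letters were counted, so close variants were missed. The Abcb11 promoter shown above holds such a variant of the FXR inverted repeat, with a single base changed. The lack of an exact match therefore does not show that Abcb11 lacks an FXR element. Such variants were not counted in the other promoters, so how common they are is not given. A match is a description of the letters and does not show binding.

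The remaining genes of the pathway showed 2 further decreases and no increase among 38 genes tested in 4 lists. Of all genes tested, 0.970% were called lower and 0.786% higher, so the lack of an increase among 38 genes says little. Of 12 synthesis partners, 1 fell and 11 were not called, with a median log2 fold change of -0.15. GHRH-KO values lay wholly below controls in 5 of the 12 and wholly above in 1, beside 15.7% and 12.7% of all genes tested. At an unadjusted p under 0.05 from limma, 4 of the 12 passed, beside 19.3% of all genes tested. The called gene was Cyp7b1, an oxysterol hydroxylase of the alternative route, with 9.94, 8.49 and 9.95 in GHRH-KO and 12.94, 13.36 and 13.18 in control mice (RMA values, log2). Cyp7b1 fell by 3.70 log2 units (adjusted p = 0.0072 from limma), with GHRH-KO replicate 5 lowest. When control replicate 2 was left out, the log2 fold change was -3.60 and the gene was no longer called (adjusted p = 0.0512). A second probe set of Cyp7b1, at -3.91 (adjusted p = 0.00084), was called too. Cyp7b1 and Cyp39a1, which act on different oxysterols, thus differed in opposite directions between the genotypes. Cyp46a1, which makes the oxysterol on which CYP39A1 acts and is best known from brain, had a log2 fold change of -0.88 (adjusted p = 0.248), and its GHRH-KO values of 4.66 to 5.25 were close to background. Akr1d1, a reductase of the steroid ring, had one of 0.59 (adjusted p = 0.208).

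Of 11 transport partners, 1 fell and 10 were not called, beside 0.970% of all genes tested called lower. The called gene, Slco1a1, encodes a sodium-independent anion carrier that also takes up bile acids. It had 5.21, 5.57 and 5.27 in GHRH-KO and 12.19, 11.67 and 12.26 in control mice and stayed called with any 1 array left out. GHRH-KO values lay wholly above controls in 3 of the 11 and wholly below in 2, beside 12.7% and 15.7% of all genes tested. Those above were the blood-side exporters Abcc3 and Abcc4 and the carrier Slco1a4, none of them called. Those below were Slco1a1 and Abcg5, the latter with a log2 fold change of -0.51 (adjusted p = 0.182 from limma). Abcc4 had 7.48, 8.19 and 7.77 in GHRH-KO and 6.49, 5.06 and 6.27 in control mice, a log2 fold change of 1.87 (95% interval 0.97 to 2.76, adjusted p = 0.0708 from limma). Slco1a4 had a log2 fold change of 0.85 (adjusted p = 0.150) and Abcc3 one of 0.75 (adjusted p = 0.123). Abcc3 and Abcg5 were chosen after their values were seen.

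No regulator of bile acid synthesis was called among 13 tested, 7 of which passed at an unadjusted p under 0.05 (19.3% of all genes tested did), and the median log2 fold change was -0.30. Ppargc1a, a coactivator induced in fasting, had 8.25, 8.67 and 8.10 in GHRH-KO and 7.54, 7.20 and 6.98 in control mice. Its log2 fold change was 1.10 (95% interval 0.62 to 1.58, adjusted p = 0.0561 from limma). Of its 5 probe sets 1 was called, narrowly, with a log2 fold change of 1.39 (adjusted p = 0.0495). That probe set is of a kind that can bind other transcripts. Those at 1.44, 1.23 and 0.87 were not called (adjusted p = 0.0871, 0.0795 and 0.130). Prox1, a corepressor of Cyp7a1 transcription, had a log2 fold change of -0.75 (adjusted p = 0.269), with all GHRH-KO mice below all controls. It was -0.43 without GHRH-KO replicate 5 and -0.52 without control replicate 1. The Prox1 probe set of lowest p had a log2 fold change of -0.76 and was not called either (adjusted p = 0.0640 from limma). Of the other regulators, 4 genes of bile acid feedback were chosen after their values were seen. Nr1h4, the bile acid receptor FXR, had 9.41 to 10.36 in GHRH-KO and 10.08 to 10.36 in control mice, with overlap and a log2 fold change of -0.30 (adjusted p = 0.524). The repressor Nr0b2 had 9.82 to 10.11 in GHRH-KO and 10.34 to 10.78 in control mice, a log2 fold change of -0.63 (adjusted p = 0.108). Fgfr4 and Klb, the receptor and coreceptor of the intestinal hormone FGF15, had log2 fold changes of -0.49 and -0.46 (adjusted p = 0.184 and 0.140). Nr0b2, Fgfr4 and Klb lay below all controls in every GHRH-KO mouse, and none of the 4 was called. Over the 13 regulators, GHRH-KO values lay wholly below controls in 5 and wholly above in 2, beside 15.7% and 12.7% of all genes tested.

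**Figure D3:**
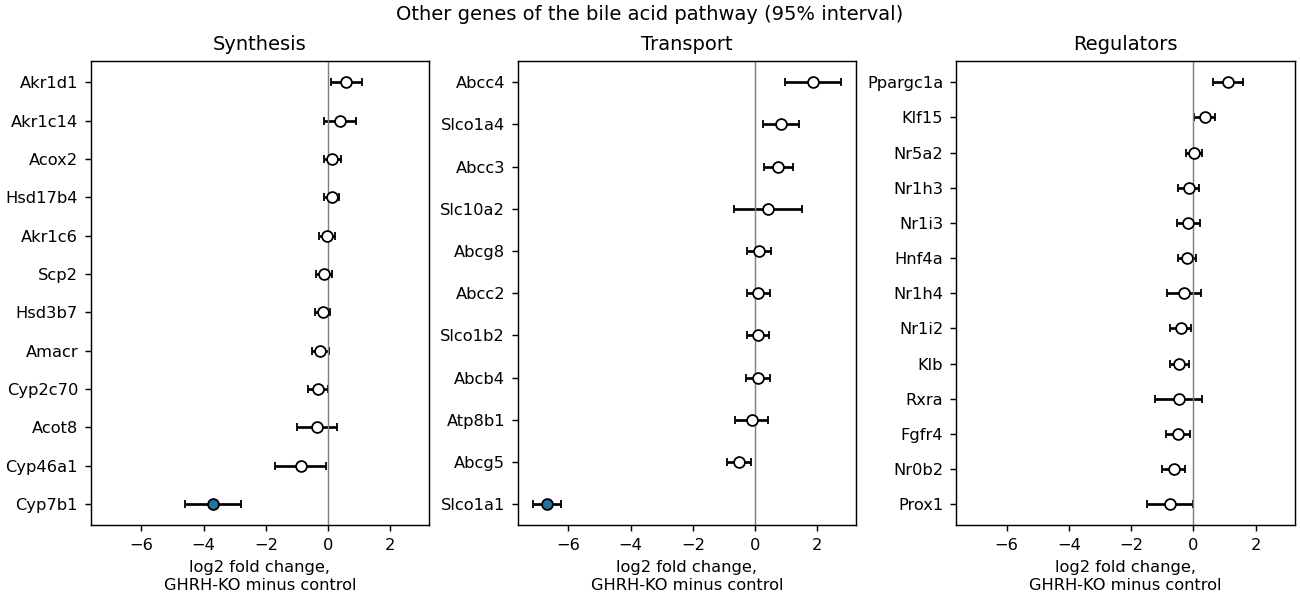
Log2 fold change, GHRH-KO minus control, with its 95% interval for the tested genes of 3 further lists of the bile acid pathway, in falling order; blue marks genes called lower and white those not called. Cyp7b1 at -3.70 and Slco1a1 at -6.69 are the called genes, and Abcc4 at 1.87 and Ppargc1a at 1.10 stand highest in their lists.

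**Figure D4:**
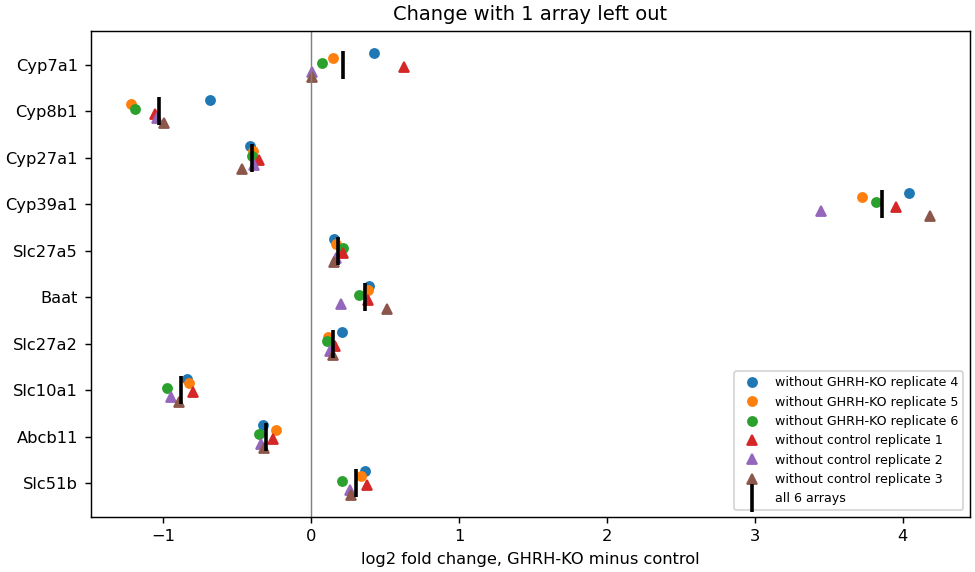
Log2 fold change, GHRH-KO minus control, of each of the 10 bile acid genes with all 6 arrays (black bar) and with 1 array left out (circles for GHRH-KO, triangles for control arrays). Cyp39a1 stays between 3.45 and 4.18 and Slc10a1 between -0.97 and -0.80, while Cyp7a1 runs from 0.0073 to 0.63.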

How the data were processed

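Liver RNA of 3 GHRH-KO and 3 control mice was hybridized to Affymetrix Mouse Genome arrays. The authors deposited RMA values on the log2 scale for every probe set, background-corrected and quantile-normalized together, so that a difference shared by all transcripts is not seen. The version of RMA is not given in the sources used here. The detection filter of the methods cannot be repeated from these values, so 25145 probe sets were tested, those of highest mean level and as many as the methods kept, without 64 control probe sets.

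Differences between genotypes (GHRH-KO minus control) were estimated using lmFit and eBayes of limma 3.58.1 under R 4.3.3, two-sided, and p was adjusted over all 25145 probe sets by the Benjamini-Hochberg method. Genes came from the platform annotation, with 34945 probe sets of 1 gene, 932 of several and 9160 of none, and symbols were updated through the RefSeq gene table for 34741. Members and lists were chosen with earlier results of these data known. Genes named in the text are all members, Ghrh and Igf1 as checks, the called genes of each pathway list and the 2 others of each list with the largest change. Outside this rule, Abcc3, Abcg5, Nr1h4, Nr0b2, Fgfr4, Klb, Slc51a and the cell markers were named after their values were seen. The fit was tested on simulated data. Alternatives were other intensity filters, normalizations, variance priors and probe sets, no fold threshold, and arrays left out. The 3 arrays per genotype limit the precision.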

Additional observations from a re-analysis of the deposited data

How the results depend on the processing

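Cyp39a1 was called under every setting tried, with log2 fold changes from 3.31 to 4.18. Slc10a1 stayed called under other intensity filters, normalizations, variance priors and probe set choices (adjusted p from 0.0142 to 0.0322), but the number of bile acid genes called lower was 0 with any 1 array left out and 0 without GHRH-KO replicate 5 and control replicate 2 together (adjusted p = 0.105), fits that have fewer samples. Cyp7a1 reversed to -0.062 without these 2 arrays together. Of the other pathway genes, 1 was called higher with a second quantile normalization and 1 with the probe set of lowest p, in both cases Ppargc1a, and 1 to 2 were called lower with 1 array left out. Over all genes, 98 were called higher and 121 lower, against 36 to 93 and 46 to 95 with 1 array left out and 42 and 64 without GHRH-KO replicate 5 and control replicate 2. With a second quantile normalization the split was 109 and 109. Slc27a4 reversed to 0.015 with a second quantile normalization. Slc27a1 reversed to -0.0080 with arrays shifted to 1 median, to -0.025 without the same 2 arrays together and to -0.0026 with the probe set of lowest p. With 1 array left out Slc27a1 ran from -0.075 to 0.052 and Slc27a4 from -0.13 to 0.032. The cause of these reversals was not tested. No paired analysis was possible because the replicate numbers of the 2 genotypes share none. Signal close to background limits Slc51a, Cyp46a1 and the cholangiocyte markers.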

Other observations

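The animals of a genotype did not take the same order in all 10 bile acid genes. Control replicate 1 was the highest control in 7 of the 10 genes, and control replicate 2 was the lowest in 7, tied with replicate 3 for Cyp7a1, and the highest in 0. Among GHRH-KO mice, replicate 6 was the highest in 6 genes and replicate 4 the lowest in 6. The median SD of the 10 genes was 0.14 in GHRH-KO and 0.13 in control mice, beside 0.16 and 0.16 over all genes tested. Marker genes outside the pathway that were called were Alas2, an erythroid enzyme of heme synthesis, which fell by 1.36 on the log2 scale (adjusted p = 0.0219 from limma), and the elastase gene Cela1, listed as a pancreatic marker, which fell by 2.07 (adjusted p = 0.0091). The other pancreatic markers with a probe set, Cpa1 and Prss2, read 4.61 to 4.95 and 5.07 to 5.63 in GHRH-KO mice, against 4.37 to 4.72 and 4.94 to 5.47 in controls.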
